A study of Mus musculus with 6 samples.

Results

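The cytosolic ribosomal protein genes were followed in stem and progenitor cells of the mouse blood system (HSPCs) that carried the leukemia fusion oncogene MLL-AF9. The genes were chosen by symbol: Rps or Rpl followed by a number, the acidic stalk genes Rplp0, Rplp1 and Rplp2, and Rpsa, without pseudogene symbols and without the S6 kinases. This gave 86 of the 23337 counted genes. Of these, 77 encode core ribosomal proteins, 31 of the small and 46 of the large subunit. The other 9 are paralogs of core proteins (Rpl3l, Rpl7l1, Rpl10l, Rpl22l1, Rpl36al, Rpl39l, Rps4y2 and Rps27l) and Rps19bp1, which encodes a protein that binds the ribosomal protein S19 and is no part of the ribosome.

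Polyadenylated RNA was sequenced from MLL-AF9 cells in pro-lymphoid culture (lymphoid replicates 1, 5 and 6) and in pro-myeloid culture (myeloid replicates 2, 3 and 4). The question was how the transcripts of cells with a single oncogene vary with the lineage signals of their culture. Both groups carried MLL-AF9, so no library shows the genes without the oncogene, and mouse strain, age, vector and culture factors are not stated in the sources at hand. Whether the 3 libraries of a group came from separate cultures or animals is not stated, so a p-value reflects only how these libraries vary, and that variation may be technical.

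Each ribosome is built from ribosomal RNA and 1 copy of nearly every core ribosomal protein, so cells make these proteins in matched amounts. Their mRNAs are short and abundant, and most begin with a terminal oligopyrimidine (TOP) tract, a C followed by a run of pyrimidines, through which mTOR signalling controls their translation. In blood cells, loss of 1 copy of genes such as Rps19, Rpl5 or Rpl11 in humans causes Diamond-Blackfan anemia, and loss of RPS14 is a feature of the 5q- syndrome.

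The libraries held 34972488 to 46724382 counts, of which 2570764 to 4809861 fell on the 86 genes. Values are counts per 1000000 (CPM) of a library size scaled by TMM, a trimmed mean of log ratios between libraries, and 3 counts in 1 library correspond to 0.0650 to 0.0888 CPM. The hematopoietic genes Ptprc, Myb and Hoxa9 were present in all 6 libraries. Of the list of 8 stem and progenitor genes, edgeR called 3 higher and 4 lower in pro-lymphoid culture, beside 17.4% and 21.3% of all tested genes. Myb averaged 308 CPM in pro-lymphoid against 636 CPM in pro-myeloid culture, and Kit 83.5 against 24.9 CPM. Of the list of 16 lymphoid genes, 14 were tested, with 8 called higher and 3 lower. The summed levels of that list overlapped, at 2245 to 2672 against 2204 to 2470 CPM. Of the list of 16 neutrophil genes, 13 were tested and 12 fell in pro-lymphoid culture by edgeR at an adjusted p under 0.05, beside 21.3% of all tested genes, and their summed level was 195 to 393 CPM there against 5271 to 9712 CPM in pro-myeloid culture. Within the pro-myeloid group Mpo, the myeloperoxidase gene of granulocyte precursors, stood at 148 CPM in replicate 2, 1512 CPM in replicate 3 and 3305 CPM in replicate 4, while Ctsg, the cathepsin G gene of the same granules, stood at 1908, 1934 and 2387 CPM. The 4 alpha- and beta-globin genes of the erythroid list, Hba-a1, Hba-a2, Hbb-b1 and Hbb-b2, had 0 counts everywhere, while the summed level of the list of 10 was 135 to 372 CPM in pro-lymphoid and 131 to 156 CPM in pro-myeloid libraries, nearly all of it Tfrc, the transferrin receptor gene that dividing cells also express, which was not called. The part of these marker differences in the ribosomal protein levels was not tested, and in bulk RNA fewer cells of a type and less RNA per cell cannot be told apart.

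For 4 core genes the table holds almost no reads: Rpl26 had 0 counts in every library, Rpl30 22 to 58, Rps27 40 to 68 and Rpl34 105 to 261. In each, more than 50% of the exon bases lie within another counted gene on the same strand. This overlap covered 95.8% of the exon bases of Rpl26 (with Gm15772), 76.0% of Rpl30 (with Gm12191), 60.0% of Rps27 (with Gm9846) and 67.2% of Rpl34 (with Rpl34-ps1). The overlapping genes had at most 1 count in any library, so the transcripts of these 4 genes cannot be judged from the table. The 73 other core genes, 30 of the small and 43 of the large subunit, are called the counted core genes. Rpl10l and Rpl39l, whose human counterparts are known for expression in testis, had 0 counts in all 6 libraries, and Rps4y2 had 2 counts in lymphoid replicate 5 and 0 elsewhere.

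None of the 73 counted core genes passed the test for a difference between the cultures. In edgeR's quasi-likelihood test over 12477 genes, 4821 genes (38.6%) had an adjusted p under 0.05, 17.4% higher and 21.3% lower in pro-lymphoid culture. Among the counted core genes 0 were called in either direction, and the smallest adjusted p was 0.167 (edgeR). An unadjusted p under 0.05 was found for 0 of them, beside 6036 of all 12477 tested genes. DESeq2 and limma-voom also called 0 of the counted core genes, beside 43.6% and 38.7% of all genes with an adjusted p. Of the counted core genes, 1 and 0 had an unadjusted p under 0.05 there. Their log2 fold changes (positive where pro-lymphoid culture was higher) ran from -0.08 to 0.50, with 69 above and 4 below 0 and a median of 0.20, beside a median of -0.00 over all tested genes. The median was 0.21 for the 30 small-subunit and 0.18 for the 43 large-subunit genes. For 72 of the 73 genes the 95% interval of the log2 fold change lay between -1 and 1, the exception being Rps12. In simulated counts of 12477 genes, 8% of 50 genes with a true log2 difference of 0.5 in size were recovered. Of 50 genes with a difference of 1, 74% were. In the simulation 12277 genes had no difference, while 4821 genes were called in the data, and the adjustment is stricter where fewer genes differ. The changed genes were also picked at random and not among ribosomal protein genes. These shares therefore do not measure how often a change in a counted core gene would be missed. The lack of calls does not show equal levels. The median was 0.02 without myeloid replicate 2 (38 above and 35 below 0), 0.34 without lymphoid replicate 1, 0.34 without myeloid replicate 3 and 0.13 without lymphoid replicate 5. In CPM, 0 of the 73 genes separated the groups without overlap, where 26.4% of all tested genes did so with higher and 27.2% with lower values in pro-lymphoid culture.

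**Figure D1:**
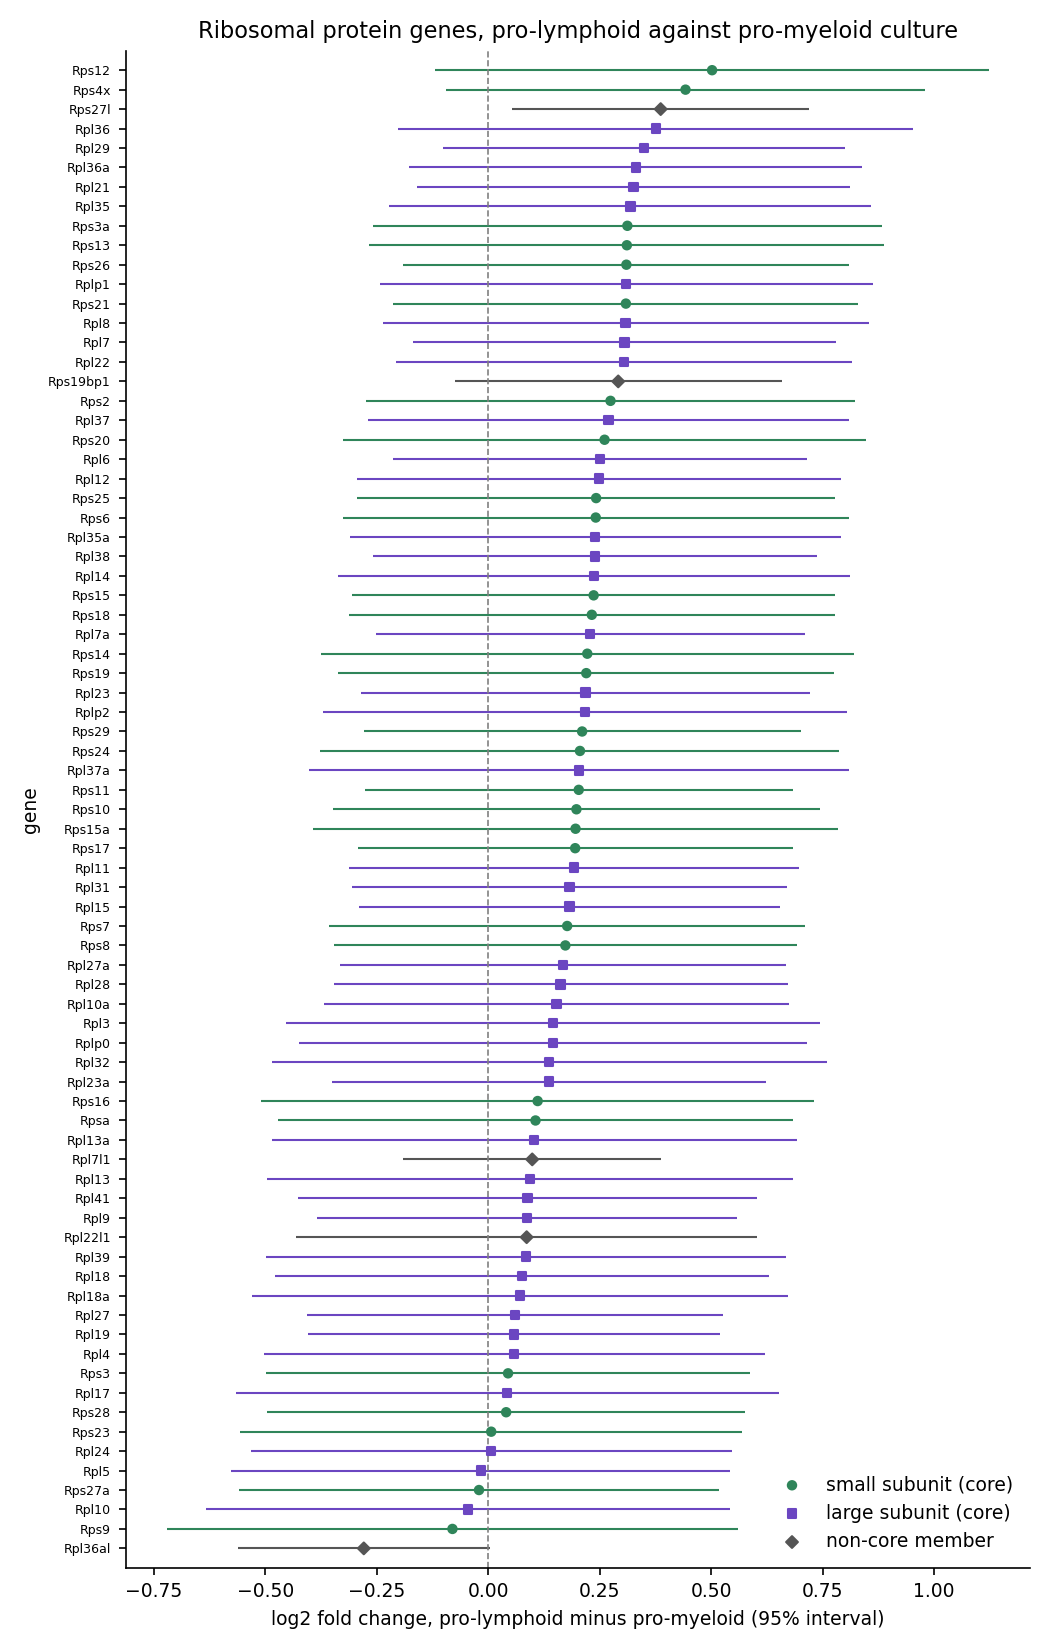
The log2 fold change of each counted core gene and of the tested paralogs, 1 gene per line except 1 not reported here, on a horizontal axis positive for higher values in pro-lymphoid culture, with bars for the 95% interval from the edgeR fit on 3 against 3 libraries. Circles are small subunit, squares large subunit and diamonds other genes of the family, and Rpl3l, at -2.91, is left out of the range. All core intervals cross 0, with values from -0.08 (Rps9) to 0.50 (Rps12).

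The counted core gene with the largest difference was Rps12, a small-subunit protein. Lymphoid replicates 1, 5 and 6 had 1292, 1770 and 1905 CPM of Rps12, and myeloid replicates 2, 3 and 4 had 784, 1409 and 1315 CPM, the order of libraries in which values are given throughout. Lymphoid replicate 1 lay below 2 of the pro-myeloid libraries, so the groups overlapped. Its log2 fold change was 0.50 (95% interval -0.12 to 1.12, edgeR adjusted p = 0.174). Rps4x, the X-linked form of the small-subunit protein S4, stood at 1545, 1990 and 2165 CPM against 1051, 1658 and 1485 CPM. Here too lymphoid replicate 1 lay within the pro-myeloid range, and the log2 fold change of 0.44 had an edgeR adjusted p of 0.167. At the other end, Rps9, a protein of the small-subunit body that takes part in decoding accuracy, stood at 1603, 2141 and 2053 CPM against 1352, 2656 and 2123 CPM. Both the lowest and the highest library of Rps9 were pro-myeloid, and its log2 fold change was -0.08 (edgeR adjusted p = 0.838).

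The stalk is the flexible arm of the large subunit that recruits translation factors. Rplp0, the base of the stalk, stood at 2756, 3351 and 3443 CPM in pro-lymphoid culture against 2136, 3326 and 3179 CPM in pro-myeloid culture. Rplp1 and Rplp2 had log2 fold changes of 0.31 and 0.22, beside 0.14 for Rplp0 (edgeR adjusted p = 0.335, 0.526 and 0.668), and all 3 genes were lowest in myeloid replicate 2. Rpsa, a small-subunit protein also known as the laminin receptor precursor, averaged 3358 ± 390 against 3120 ± 705 CPM (SD, n = 3), a log2 fold change of 0.11. Of 18 genes mutated in Diamond-Blackfan anemia, 16 were among the counted core genes, and 0 of them were called, beside 38.6% of all tested genes. The 16 had a median log2 fold change of 0.19 and a range of -0.02 to 0.32. Rps19, the gene most often mutated in that disease, stood at 914, 1241 and 1185 CPM against 673, 1198 and 997 CPM. Its pro-lymphoid replicates 5 and 1 lay on either side of myeloid replicate 3, and its log2 fold change was 0.22 (edgeR adjusted p = 0.498). Rps14 stood at 956, 1410 and 1286 against 714, 1292 and 1126 CPM, again with overlapping groups (log2 fold change 0.22, edgeR adjusted p = 0.523). Rpl5 and Rpl11, which with 5S RNA bind and inhibit the p53 ligase Mdm2 when ribosome assembly is disturbed, had log2 fold changes of -0.02 and 0.19. Of the 7 family members listed as binding Mdm2, 5 had reads to judge, and 0 of those were called, beside the same 38.6%. Neither count sets these genes apart from the family, as 0 of the 73 counted core genes were called.

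The level of the counted core genes was compared library by library. Every one of the 73 genes was lowest in myeloid replicate 2, against 2403 of all 12477 tested genes (19.3%). In 70 of the 73 genes lymphoid replicate 1 was second lowest, and in the other 3 myeloid replicate 4 was. The highest library was lymphoid replicate 5 for 29 genes, lymphoid replicate 6 for 22 and myeloid replicate 3 for 22. On the log2 CPM scale the median difference of a gene from its own mean over the 6 libraries was -0.17 in lymphoid replicate 1, 0.26 in 5 and 0.24 in 6. It was -0.53 in myeloid replicate 2, 0.18 in 3 and 0.04 in 4. The 2 lowest libraries thus came from different cultures, and so did the 3 that were highest for some gene.

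**Figure D2:**
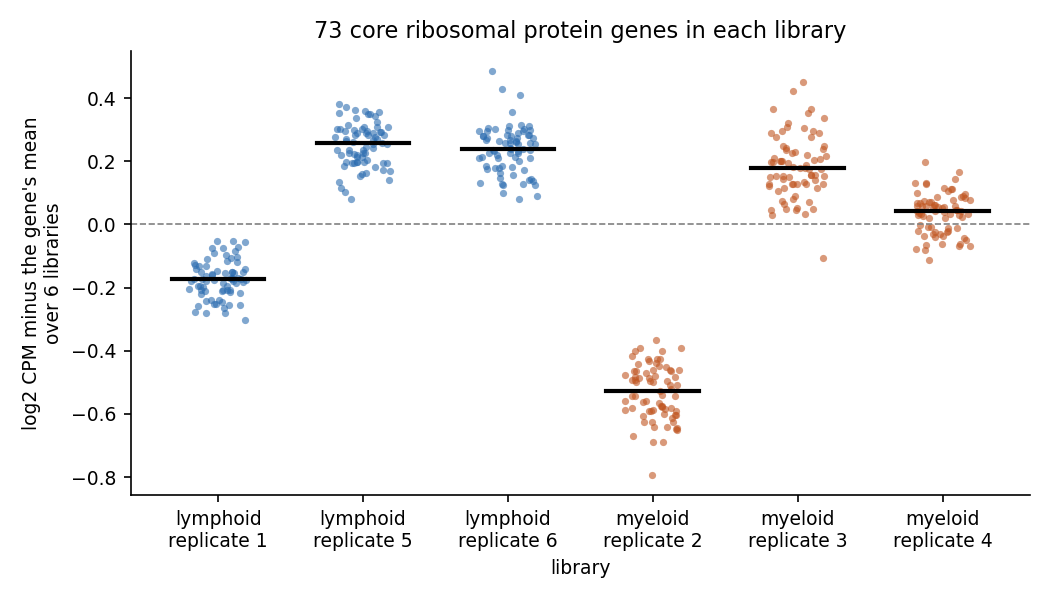
The log2 CPM of each of the 73 counted core genes minus its own mean over the 6 libraries (vertical axis), by library (horizontal axis), with 1 point per gene and a bar at the median. All points of myeloid replicate 2 lie below -0.36 and all points of lymphoid replicate 1 below 0, while those of lymphoid replicates 5 and 6 lie above 0.

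Short transcripts in general stood lower in the same libraries. Myeloid replicate 2 minus the mean of the other 2 pro-myeloid libraries had a median log2 difference of -0.25 over the 957 other genes with under 1000 bases of exon, and of 0.19 over the 3362 genes with at least 4000 bases. For the counted core genes, with a median exon length of 725 bases, it was -0.64, and all 73 were lower. Lymphoid replicate 1 minus lymphoid replicates 5 and 6 gave -0.19 for the short genes, 0.15 for the long ones and -0.42 for the counted core genes. With an offset for the trend of each library with exon length, added after these values were seen, myeloid replicate 2 was still the lowest library for 73 of 73 genes, at a median of -0.35 from their means. Lymphoid replicate 1 moved to a median of -0.073, with 64 of 73 genes below their means where all 73 had been. With that offset the median log2 fold change between the cultures was 0.19, 0 counted core genes were called, and their smallest adjusted p was 0.0622 (edgeR). Myeloid replicate 2 and lymphoid replicate 1 also had the smallest shares of counts in histone genes, most of whose transcripts lack poly(A), at 0.0159% and 0.0243% against 0.0325% to 0.0556% in the other 4 libraries. The part of poly(A) selection in these library differences was not tested. Leaving out both libraries was a choice made after their low values were seen. In that fit 41.7% of all tested genes were called. Of the counted core genes 1, Rps12, was called higher in pro-lymphoid culture (log2 fold change 0.44, edgeR adjusted p = 0.0405). An unadjusted p under 0.05 was found for 5 of them.

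The TOP tract that many of these mRNAs share can be read from the start of the genes. RefSeq promoter sequences (GRCm38.p6) were found for 64 of the 86 genes. A C followed by at least 4 pyrimidines began exactly at the annotated start in 13 of them (20.3%), against 3.01% of 27025 genes, and within 10 bases of the start in 39 (60.9%), against 34.4%. The motif CCGGAAGT, an ETS factor core searched on both strands anywhere in the 300 bases from 250 before to 50 after the start, was found in 12 of the 64 (18.8%, against 4.31% of genes). The core motif of the factor YY1, searched the same way, was found in 3 (4.69%, against 0.995%). The 27025 genes were not limited to those expressed in these libraries, and a comparison with expressed genes alone was not made. A match is a description of these letters, not a bound site. The sequences below run from 30 bases before the annotated start to 20 after it, 5′ to 3′ on the coding strand. Capitals mark the pyrimidine tract nearest the start, if it begins within 10 bases of the start. The first 6 show tracts that begin within 10 bases before the start, in genes of either subunit, and the last 4 are members whose share or paralog balance is described further on.
Rpl15, chr14:18270967-18271016, minus strand: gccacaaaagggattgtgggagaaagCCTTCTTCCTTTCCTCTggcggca
Rpl28, chr7:4792935-4792984, plus strand: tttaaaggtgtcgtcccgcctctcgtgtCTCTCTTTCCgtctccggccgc
Rpl35, chr2:39005112-39005161, minus strand: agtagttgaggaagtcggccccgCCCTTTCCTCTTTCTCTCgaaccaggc
Rps6, chr4:86857348-86857397, minus strand: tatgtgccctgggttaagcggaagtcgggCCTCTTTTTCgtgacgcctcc
Rps10, chr17:27635225-27635274, minus strand: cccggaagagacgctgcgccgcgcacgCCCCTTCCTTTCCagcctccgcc
Rps18, chr17:33955646-33955695, minus strand: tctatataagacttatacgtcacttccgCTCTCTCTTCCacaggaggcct
Rps12, chr10:23787190-23787239, minus strand: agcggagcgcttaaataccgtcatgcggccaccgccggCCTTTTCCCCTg
Rps9, chr7:3704011-3704060, plus strand: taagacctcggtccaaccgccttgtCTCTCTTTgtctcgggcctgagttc
Rpl36a, chrX:134585624-134585673, plus strand: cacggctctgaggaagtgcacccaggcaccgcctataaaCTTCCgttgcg
Rpl36al, chr12:69184048-69184097, minus strand: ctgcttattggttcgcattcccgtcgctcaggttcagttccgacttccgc
The tract began 4 bases before the annotated start in Rpl15 and ran for 17 bases, and that of Rpl35 was 18 bases long. In Rps12 and Rpl36a the nearest tract began 8 and 9 bases after the annotated start. For Rpl36al no tract of this form began within 10 bases of the start. The letters CTTCC, which form the tract of Rpl36a, also occur in Rpl36al just beyond that limit and are in lower case.

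Compared per length, as CPM per kb of exon averaged over the 6 libraries, the counted core genes spread from 139 to 3579 with a median of 1697 and quartiles of 1245 and 2160. The 5 highest were Rpl41 (3579), the shortest ribosomal protein, Rps2 (3159), Rplp1 (3080), Rpl28 (2936) and Rps9 (2828). Rpl41 stood at 3689 ± 491 CPM per kb in pro-lymphoid culture against 3470 ± 782 in pro-myeloid culture (SD, n = 3), and Rps2 at 3458 ± 494 and 2859 ± 525. These spreads are over libraries that all the genes share, so they do not measure how firm the order is. The order within single libraries was not compared, and the ranking among the 5 was not tested. The lowest, Rps15a, has 5134 bases of annotated exon, the longest of the family, and 604 to 847 CPM in 5 of the 6 libraries and 446 CPM in myeloid replicate 2. The order of the genes was nearly the same in both cultures (Spearman's rho 0.977 across 73 genes, which share the same libraries and are not independent).

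As a fraction of each library, the 86 genes took 8.95%, 11.3% and 11.1% of the counts of the pro-lymphoid libraries. For the pro-myeloid libraries the values were 6.73%, 10.4% and 9.74%. The groups overlapped (exact permutation p = 0.4, two-sided, adjusted p = 0.4 over the 2 shares tested). The division of this total between the subunits varied less from library to library. Genes named Rps, with Rpsa, took 42.6%, 42.8% and 42.7% of the ribosomal protein counts in pro-lymphoid culture against 41.5%, 42.1% and 42.0% in pro-myeloid culture. The groups did not overlap, with means of 42.7 ± 0.0914% and 41.9 ± 0.305% (SD, n = 3) and a difference of 0.849 percentage points. The exact permutation p was 0.1, the smallest that 3 against 3 libraries allow, and 0.2 adjusted over the 2 shares. The difference was 0.775 points among core genes alone and 0.676 to 0.965 points with 1 library left out.

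**Figure D3:**
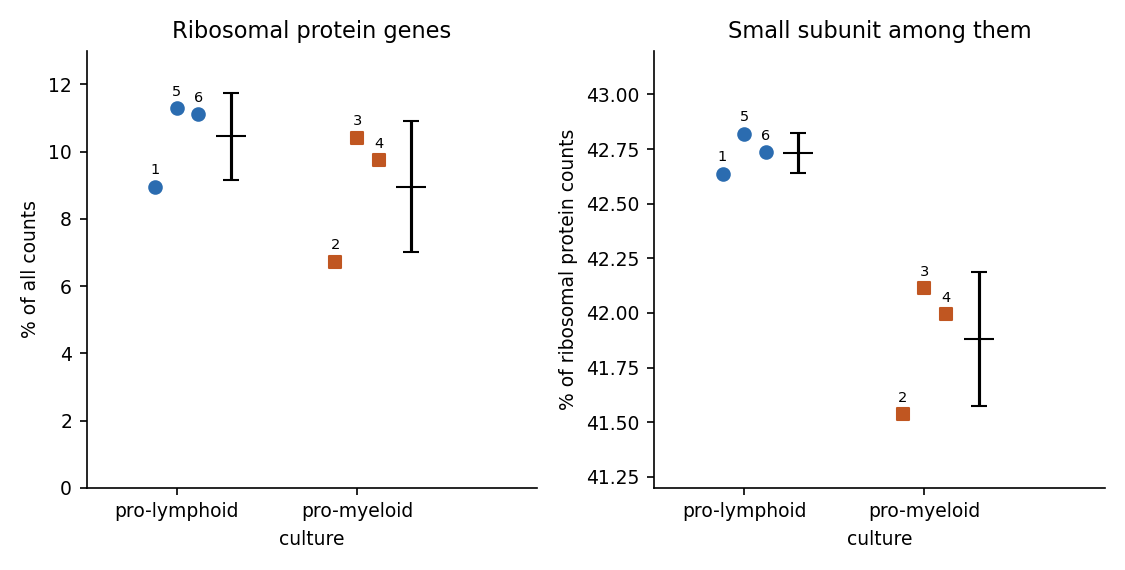
Left, the percentage of all counts on the 86 genes, and right, the percentage of those counts on small-subunit genes, on an axis that does not start at 0; each point is 1 library with its replicate number, and the bars give the mean ± SD of 3 libraries. The left values overlap between the cultures (8.95% to 11.3% against 6.73% to 10.4%), and the right values do not (42.6% to 42.8% against 41.5% to 42.1%).

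Measured against the ribosomal protein total of its own library, each gene varied much less than in CPM. That total is the sum of the family's own counts, so a shift that its genes share is removed by the scaling. Higher shares of some genes also require lower shares of others. The SD over the 6 libraries of a counted core gene had a median of 0.31 on the log2 CPM scale and of 0.077 for the log2 share of the total. The highest library exceeded the lowest by a median factor of 1.78 in CPM (range 1.48 to 2.43) and of 1.15 in share (range 1.03 to 1.45). The steadiest share was that of Rps7, whose highest library was 1.03 times its lowest, and the most variable that of Rps12, at 1.45 times.

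On this scale the groups separated without overlap for 33 of the 73 counted core genes. Of these, 18 had higher shares in pro-lymphoid culture (9 of the small and 9 of the large subunit), beside 9.97% of all tested genes set against the same total. The other 15 had lower shares (5 small and 10 large), beside 26.5% of all genes. This scale sets the median of the counted core genes near 0 (0.03) and moves other genes down, which lowers the first background and raises the second. In CPM the 2 backgrounds were 26.4% and 27.2%. The counts of 18 and 15 are therefore not read as an excess over all genes. The test over all genes relative to the ribosomal protein total, which moves the median of all genes by -0.21 on the log2 scale, called 22.0% of genes, 5.82% higher and 16.2% lower. It called 0 of the counted core genes, with 0 at an unadjusted p under 0.05 and a smallest adjusted p of 0.180 (edgeR). Limma-voom with the same library sizes also called 0 of them, beside 22.3% of all tested genes. The single genes described next were chosen after their values were seen, from those whose shares did not overlap between the groups. Some genes with overlapping shares, such as Rps2 and Rpsa, had larger differences in percentage points than some of those named.

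Rps12 took 1.52%, 1.57% and 1.70% of the ribosomal protein counts in pro-lymphoid culture against 1.17%, 1.30% and 1.33% in pro-myeloid culture. Every pro-lymphoid library was thus above every pro-myeloid one, with means of 1.60% and 1.27% and a log2 difference of 0.33 (edgeR adjusted p = 0.180). Rps4x took 1.82%, 1.76% and 1.93% against 1.57%, 1.53% and 1.51%. In the other direction, Rps9 took 1.89%, 1.90% and 1.83% in pro-lymphoid culture against 2.02%, 2.45% and 2.15% in pro-myeloid culture, a log2 difference of -0.24 (edgeR adjusted p = 0.323). Its highest share was that of myeloid replicate 3. Rpl10, an X-linked protein that is added late to the large subunit and is mutated in some human T-cell leukemias, took 1.45%, 1.41% and 1.46% against 1.60%, 1.83% and 1.56%. Rpl5 took 1.82%, 1.80% and 1.81% against 2.04%, 2.09% and 2.07%, with little spread in either group. The exons of Rpl5 overlap those of Fam69a on the opposite strand over 47.7% of their bases. Reads were counted without strand and without assigning those that overlap 2 genes, so reads of Rpl5 there may be missing from its counts. Other genes with higher shares included Rps3a, Rps6, Rps13, Rps18, Rps21 and Rps26 of the small and Rpl7, Rpl8, Rpl21, Rpl22, Rpl29, Rpl35, Rpl36, Rpl36a and Rplp1 of the large subunit. Rps3a, for example, averaged 2.37% of the ribosomal protein counts against 2.15%. Further lower shares included those of Rps3, Rps23 and Rps28 of the small and Rpl4, Rpl9, Rpl13a, Rpl18, Rpl19, Rpl24, Rpl27 and Rpl41 of the large subunit, such as Rpl4 with 2.72% against 2.97% and Rps3 with 1.72% against 1.88%. Rps27a, which is made as a fusion of ubiquitin with the ribosomal protein, took 1.18%, 1.10% and 1.10% against 1.24%, 1.36% and 1.23%.

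**Figure D4:**
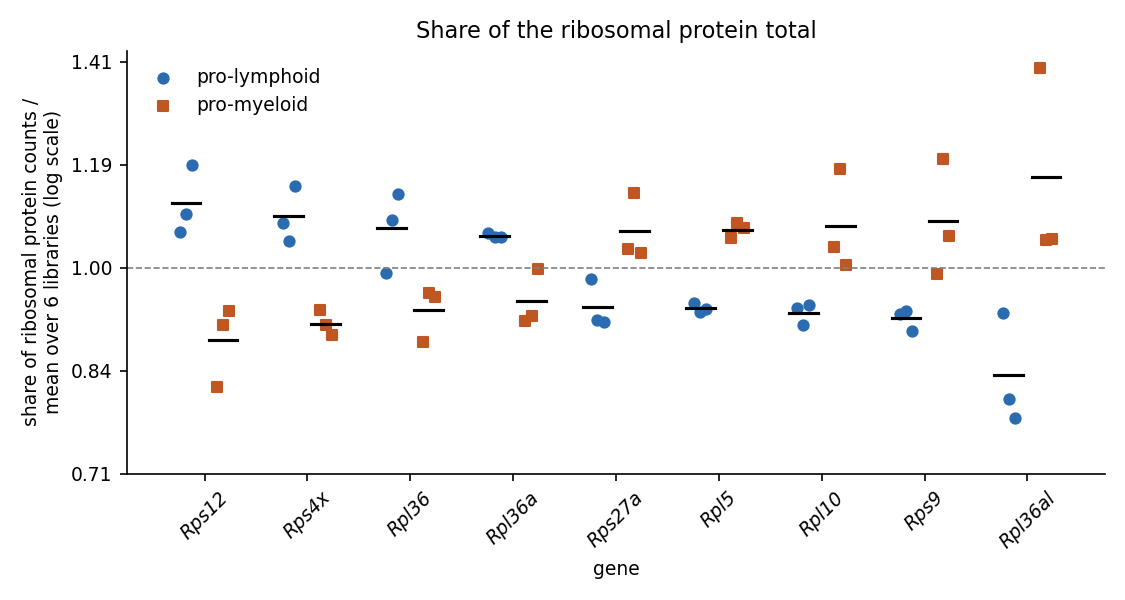
The share of the ribosomal protein counts taken by each of 9 genes, divided by its mean over the 6 libraries (vertical axis, log scale), with circles for pro-lymphoid and squares for pro-myeloid libraries, replicates in rising number from left to right, and bars at the group means. Of these genes, chosen for their differences, the 4 on the left are higher in every pro-lymphoid library and the 5 on the right lower; Rps12 averages 1.60% against 1.27% and Rps9 1.87% against 2.21%.

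Among the paralogs, Rpl3l was the 1 family member called in the test over all genes, of 82 tested (1.22%, beside 38.6% of all tested genes). Rpl3l, known as the heart and skeletal muscle form of Rpl3, had 17, 9 and 9 counts in pro-lymphoid culture against 25, 123 and 116 counts in pro-myeloid culture. The pro-lymphoid libraries were all below the pro-myeloid ones, with myeloid replicate 2 closest to them. Rpl3l passed the filter of low counts chiefly through the pro-myeloid libraries, where it was higher, and was not tested with a filter of 1 CPM in 3 libraries. In CPM the means were 0.302 ± 0.138 and 2.27 ± 1.51 (SD, n = 3), and the log2 level of Rpl3l fell by 2.91 (SE 0.73, edgeR adjusted p = 0.0181). The level is low beside Rpl3, which stood at 2185 to 2975 CPM in pro-lymphoid culture against 1747 to 2888 CPM in pro-myeloid culture: per length, Rpl3l reached at most 0.117% of Rpl3. The call was lost without lymphoid replicate 5 (adjusted p = 0.0595), lymphoid replicate 6 (0.0736) or myeloid replicate 4 (0.0547, all edgeR). Relative to the ribosomal protein total Rpl3l was also the 1 called member, lower by a log2 of -3.04 (edgeR adjusted p = 0.00368).

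Rpl36al, an autosomal copy of the X-linked Rpl36a that encodes nearly the same large-subunit protein, stood at 293, 337 and 324 CPM in pro-lymphoid culture against 349, 423 and 386 CPM in pro-myeloid culture. The groups did not overlap, but the log2 fold change of -0.28 had an edgeR adjusted p of 0.106, and of 0.0273 with the exon-length offset (-0.32). Rpl36a stood at 465, 613 and 609 CPM against 316, 517 and 509 CPM, with overlapping groups. Per length, Rpl36al came to 59.6%, 52.0% and 50.3% of Rpl36a in pro-lymphoid culture against 104%, 77.5% and 71.8% in pro-myeloid culture. The ratio was thus lower in every pro-lymphoid library (54.0 ± 4.96% against 84.5 ± 17.4%, exact permutation p = 0.1, adjusted p = 0.133 over 4 paralog pairs, chosen after values were seen). As the coding sequences are alike, reads may be assigned between the copies.

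Rpl22l1, the partner of Rpl22 that is known to rise when Rpl22 is lost, stood at 82.6, 140 and 138 CPM in pro-lymphoid culture against 93.7, 120 and 126 CPM in pro-myeloid culture. Lymphoid replicate 1 was the lowest of the 6, and the log2 fold change was 0.09 (edgeR adjusted p = 0.784). Rpl22 itself, a large-subunit protein lost in some T-cell leukemias, averaged 623 ± 95.2 against 505 ± 127 CPM (SD, n = 3). Per length, Rpl22l1 was 68.8%, 88.0% and 87.3% of Rpl22 against 112%, 88.6% and 93.4%, with no overlap but with lymphoid replicate 5 and myeloid replicate 3 less than 1 percentage point apart (exact permutation p = 0.1, adjusted p = 0.133). Rpl7l1, a Rpl7 relative of the assembling large subunit, differed by a log2 of 0.10 (edgeR adjusted p = 0.557), and its ratio to Rpl7 overlapped between the groups (exact permutation p = 0.4).

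Rps27l, a p53-induced paralog of Rps27, stood at 197, 236 and 232 CPM in pro-lymphoid culture against 152, 157 and 200 CPM in pro-myeloid culture. Lymphoid replicate 1 lay just below myeloid replicate 4. The log2 fold change was 0.39 (SE 0.14, edgeR adjusted p = 0.0674), and the gene was called higher with no scaling factors (edgeR adjusted p = 0.0431), by DESeq2 (adjusted p = 0.0455) and without myeloid replicate 4 (edgeR adjusted p = 0.0357). Rps19bp1 stood at 22.9, 30.6 and 29.8 CPM against 22.7, 22.9 and 22.5 CPM, with lymphoid replicate 1 barely above the pro-myeloid libraries (log2 fold change 0.29, edgeR adjusted p = 0.180).

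Genes that work beside the ribosomal proteins were compared by the same test. Of 45 genes of ribosome biogenesis, 30 rose and 0 fell in pro-lymphoid culture, beside 17.4% of all tested genes called higher and 21.3% called lower, with a median log2 fold change of 0.59, where the counted core genes had 0 called of 73 and a median of 0.20. Fbl, the methyltransferase of box C/D snoRNPs, rose from 154 ± 15.9 to 293 ± 44.4 CPM (SD, n = 3), a log2 fold change of 0.93 (edgeR adjusted p = 0.0027). Polr1a, the largest subunit of RNA polymerase I, rose by a log2 of 0.67, Polr1c, a subunit shared by RNA polymerases I and III, by 0.82, and Nop2, an rRNA methyltransferase, by 0.95 (edgeR adjusted p = 0.0041, 0.00348 and 0.00375). Of 28 genes with TOP mRNAs that are not ribosomal proteins, 5 rose (17.9%) and 0 fell, with a median of 0.19, so the share called higher was near that of all genes. Nap1l1, a histone chaperone, rose by a log2 of 1.01, Snhg1, a host gene of snoRNAs, by 0.55, and the elongation factor subunits Eef1g and Eef1d by 0.59 and 0.49 (edgeR adjusted p = 0.00193, 0.012, 0.0404 and 0.02). Of 76 mitochondrial ribosomal protein genes 7 rose and 3 fell, 13.2% in either direction beside 38.6% of all tested genes, with a median of 0.07. Mrpl12 rose by a log2 of 0.66 and Mrpl28 by 0.44, while Mrpl33 fell by 1.11 and Mrpl51 fell by 0.57 (edgeR adjusted p = 0.00726, 0.0169, 0.00291 and 0.00868). The number called in the biogenesis list was 14 without lymphoid replicate 6 and 19 without myeloid replicate 3. TOP genes called higher numbered 2, 1, 3 and 2 without lymphoid replicates 5 and 6 and myeloid replicates 2 and 4, and mitochondrial genes called higher 1, 1, 2 and 4 without lymphoid replicates 5 and 6 and myeloid replicates 3 and 4, with 7 lower without myeloid replicate 2. Of the genes named here, Snhg1 lost its call without lymphoid replicate 6 (edgeR adjusted p = 0.0529), and Mrpl28 without lymphoid replicate 5 or 6 or myeloid replicate 4 (0.0573 to 0.0680). Eef1d lost it without any 1 of lymphoid replicates 5 and 6 and myeloid replicates 3 and 4 (0.0550 to 0.0813), and Eef1g without any 1 of those or myeloid replicate 2 (0.0687 to 0.138, all edgeR adjusted p). Myeloid replicate 2 was the lowest library for 18 of the 28 TOP genes, 6 of the 45 biogenesis genes and 18 of the 76 mitochondrial genes, beside 73 of 73 counted core genes.

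**Figure D5:**
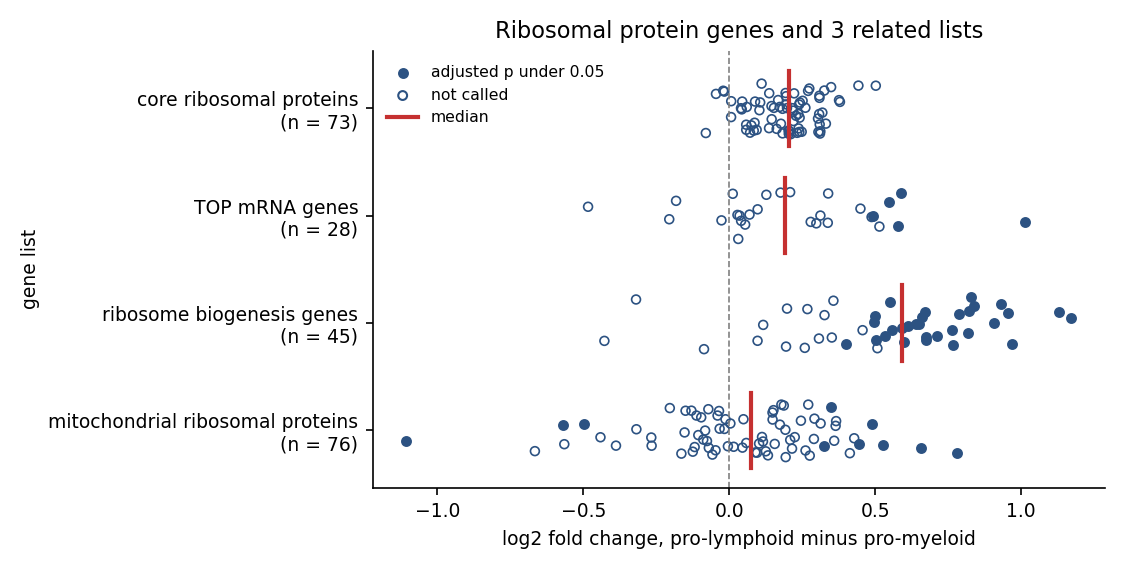
The log2 fold change (horizontal axis, positive for higher values in pro-lymphoid culture) of each gene of 4 lists (vertical axis, with scatter for legibility), filled where the edgeR adjusted p is under 0.05 and open otherwise, with a red bar at the median. The 73 counted core genes lie between -0.08 and 0.50 with none filled, and 30 of the 45 biogenesis genes are filled, all above 0.

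Fau encodes a ribosomal protein whose symbol falls outside the rule, made as a fusion with a ubiquitin-like protein. It stood at 907, 1189 and 1124 CPM in pro-lymphoid culture against 798, 1639 and 1220 CPM in pro-myeloid culture. Its lowest and its highest library were both pro-myeloid, with myeloid replicate 2 the lowest, and its log2 fold change was -0.18 (edgeR adjusted p = 0.617).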

How the data were processed

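The values deposited by the authors are raw read counts of 23337 genes in 6 libraries. FeatureCounts 1.5.1 was run, per the file headers, over exons of the UCSC mm10 annotation, with primary alignments, without strand and without the option that assigns reads to overlapping genes. Trimmomatic, Bowtie, TopHat and DESeq2 were also used, per the submitters' processing notes, with no version or setting stated. Primary alignments keep 1 place for a read that matches several, so counts of near-identical copies and of ribosomal pseudogenes are uncertain.

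All genes were tested with edgeR 4.0.16 (filterByExpr, TMM, quasi-likelihood F test, two-sided, Benjamini-Hochberg adjustment over 12477 genes, threshold 0.05). A second fit used the summed counts of the 86 genes as library size. Shares were compared by exact permutation of libraries (SciPy 1.17.1). Procedures were tested on simulated counts. Alternatives were other scalings, filters of low counts, DESeq2 1.42.0, limma-voom 3.58.1, a minimum log2 fold change of 0.5 and each library left out. Floors of 3 counts cover counting error only. Replicate numbers are those of the library titles. Coordinates are mm10, and promoters are RefSeq sequences of GRCm38.p6. No genome sequence was used.

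The members and lists were chosen with earlier results of these data known. Genes named were the paralogs, the stalk, Rpsa, disease genes, the 5 with the highest level per length, members past the threshold and up to 4 genes of each comparison list with the smallest adjusted p. Further members named for their shares were chosen after their values were seen. Some genes are not reported here.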

Additional observations from a re-analysis of the deposited data

How the results depend on the processing

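With 3 libraries a group, exact permutation cannot go below p = 0.1. No paired analysis was possible because no replicate number occurs in both groups. Under 16 alternatives the number of genes higher in pro-lymphoid culture was 1298 to 2478 with 1 library left out, against 2169 (1298 without lymphoid replicate 6 and 1394 without myeloid replicate 4). The median log2 fold change of tested members stayed above 0 (0.02 to 0.33 with 1 library left out, against 0.20). Members called higher numbered 1 with no scaling factors, by DESeq2 and without both lymphoid replicate 1 and myeloid replicate 2, and 0 to 1 with 1 library left out. Members called lower numbered 0 with a filter of 1 CPM, where Rpl3l is not tested, 0 among core and counted core genes, 2 with the exon-length offset and 0 to 1 with 1 library left out. Relative to the ribosomal protein total 0 were lower with the filter of 1 CPM. TOP genes higher numbered 8 by DESeq2 and 1 to 4 with 1 library left out, and lower 1 without both libraries and 0 to 1. Biogenesis genes higher numbered 14 to 30 with 1 library left out and 34 without both, and lower 1 by DESeq2, 1 with the offset and 0 to 1. Mitochondrial genes higher numbered 1 to 5 with 1 library left out and 6 without both, and lower 2 to 7, 5 without both libraries and 8 with the offset. The causes of these changes were not tested. Values near 0 changed sign: Rps27a (-0.02) was 0.0207, 0.0268 and 0.00888 and Rpl5 (-0.02) 0.0248, 0.0287 and 0.00223 with upper-quartile scaling, no scaling and limma-voom, and Rpl10 (-0.05) was 0.00148 with no scaling. With 1 library left out the log2 fold change ran from -0.31 to 0.15 for Rps9, -0.22 to 0.18 for Rps27a, -0.25 to 0.18 for Rpl10, -0.21 to 0.13 for Rpl5, -0.0351 to 0.30 for Rpl22l1 and -0.41 to 0.0871 for Fau. It ran from -0.0470 to 0.29 for Rpl3, -0.0325 to 0.26 for Rplp0, -0.00388 to 0.38 for Rplp2, -0.0688 to 0.24 for Rpsa, -0.0865 to 0.22 for Rpl41 and -0.00535 to 0.30 for Rpl28. None of these was called in any setting. The alternatives without both libraries, with counted core genes and with the exon-length offset were chosen after seeing the data.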

Other observations

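The kinases named for ribosomal protein S6, which the choice of genes leaves out, were read from the same test. Of 10 such genes 9 were tested, and 2 fell and 0 rose in pro-lymphoid culture, a share (22.2%) near the 21.3% of all tested genes called lower. Rps6ka3, which encodes the ERK-activated kinase RSK2, stood at 15.4, 12.2 and 14.8 CPM in pro-lymphoid and 115, 45.6 and 75.1 CPM in pro-myeloid culture. All pro-lymphoid libraries lay below all pro-myeloid ones, and Rps6ka3 fell by 2.48 on the log2 scale (SE 0.33, edgeR adjusted p = 0.00128). Rps6ka2, which encodes RSK3, stood at 1.90, 1.36 and 1.26 CPM against 21.2, 4.77 and 4.23 CPM, with myeloid replicate 2 far above the other libraries, and fell by 2.74 (edgeR adjusted p = 0.0203). Over 16 alternatives Rps6ka3 was called in 16 and Rps6ka2 in 13. The exceptions for Rps6ka2 were limma-voom (adjusted p = 0.0502) and the tests without lymphoid replicate 5 (0.0627) or 6 (0.0762, both edgeR adjusted p), and without myeloid replicate 2 its log2 fold change was -1.58.

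Rps6kb1, the S6 kinase 1 of the mTOR pathway that phosphorylates the ribosomal protein S6, stood at 73.2, 62.2 and 77.0 CPM against 100.4, 72.9 and 80.2 CPM, with overlapping groups (log2 fold change -0.26, edgeR adjusted p = 0.225). Rps6kb2, its paralog, stood at 33.2, 27.2 and 26.0 against 23.0, 28.7 and 24.2 CPM (log2 fold change 0.19, edgeR adjusted p = 0.391). Rps6ka1, the most abundant in CPM, stood at 424, 464 and 456 against 341, 411 and 385 CPM, without overlap and without passing the test (log2 fold change 0.24, edgeR adjusted p = 0.144).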
